A study of Homo sapiens with 4 samples.

Results

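The strongest distal open chromatin sites of control TMD8 cells are 1857 of the 73135 intervals counted in the series, or 2.54%. They were chosen as intervals on autosomes that were at most 5000 bp long, had their midpoint more than 5 kb from either end of any protein-coding gene, and reached at least 30 CPM (the count in an interval divided by the library's total over all intervals, times 1000000) in both control libraries. They make up 3.89% of the 47737 intervals that meet the length and distance conditions, and all 1857 passed the filter on low counts. TMD8 is an established line of diffuse large B cell lymphoma of the activated B cell-like (ABC) type. Its chromatin was probed by ATAC-seq, whose transposase inserts sequencing adapters into DNA free of nucleosomes, after an shRNA against IRF4 (shIRF4, 2 libraries) or a scrambled shRNA (control, 2 libraries). The sample titles name an shRNA and the library names read siIRF4, and the titles and design text were followed. No time after silencing, hairpin sequence or clone was given in the labels, and nothing in them says that the 2 libraries of a group came from separate cultures, so p-values measure the spread between these libraries, which may be technical.

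Distal open sites include enhancers, stretches of DNA where transcription factors bind and from which they raise transcription of genes at a distance, often in clusters around the genes that define a cell type. They also include insulators, starts of non-coding transcripts and repeats. IRF4 is a transcription factor of lymphoid cells. It binds DNA weakly on its own and pairs with ETS factors such as PU.1 and SPIB or with BATF and JUN proteins at composite motifs. ABC lymphoma cells depend on it. Because each value is an average over many cells, fewer cells with a site open and less opening per cell cannot be told apart.

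Total counts were 17954924 and 9112860 in the shIRF4 libraries and 12152153 and 13609123 in the control libraries. The shIRF4 pair differed from each other by more than the control pair did, with a standard deviation (SD) of the log2 ratio between the 2 libraries of a group of 0.19 over the sites in shIRF4 and 0.09 in control. Over all intervals, the chi-square per degree of freedom between the 2 libraries was 2.01 in shIRF4 and 1.04 in control, where counting error alone gives about 1. The control pair thus differed by hardly more than counting error and added little spread to the p-values. The deeper shIRF4 library is called shIRF4 library 1 throughout. The cells carried B cell open chromatin. Of 8 B cell markers, 6 had an interval of at least 30 CPM within 1 kb of a gene end, against 1 of 18 T cell, 1 of 13 NK cell, 1 of 14 myeloid and 0 of 14 epithelial and fibroblast markers. Summed over their gene-end intervals, the B cell markers held 575 and 513 CPM in shIRF4 and 538 and 539 CPM in control.

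Distance from protein-coding ends did not keep gene starts out. RefSeq, which lists alternative starts and non-coding genes, placed at least 1 annotated transcription start inside 436 of the 1857 sites, of which 283 held a start of a protein-coding gene and 153 a start of a long non-coding RNA (lncRNA) only. This split was chosen after the values were seen. Sites with and without a start are described apart below. The promoter sequences of 6 such lncRNAs are shown because they cover falls, rises and no call in shIRF4. They were taken from RefSeq on GRCh38.p14 as 250 bases before to 50 bases after the annotated start, are written 5′ to 3′ on the strand of the gene, and each lies inside 1 site. Capitals mark matches, on either strand, to the ETS-IRF composite (GGAA and GAAA, in that order, with any 2 bases between them), the tandem IRF motif (GAAA and GAAA, spaced the same way), AP-1 (TGANTCA), NF-kB (GGG and TTTCC, spaced the same way), the octamer (ATTTGCAT) and RUNX (TGTGGT). The first pair of motifs can overlap when shifted against each other.
LINC02245 lies at chr2:64932398-64932697 (minus strand), AS-PTPRE at chr10:128062376-128062675 (minus strand) and ECE1-AS1 at chr1:21293040-21293339 (plus strand). The sites that hold them fell.
LINC02245: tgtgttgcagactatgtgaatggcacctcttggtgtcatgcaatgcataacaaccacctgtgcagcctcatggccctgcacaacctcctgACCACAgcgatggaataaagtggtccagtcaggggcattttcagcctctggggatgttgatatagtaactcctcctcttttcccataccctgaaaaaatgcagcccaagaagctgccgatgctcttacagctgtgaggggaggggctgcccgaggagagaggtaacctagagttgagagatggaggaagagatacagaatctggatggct
AS-PTPRE: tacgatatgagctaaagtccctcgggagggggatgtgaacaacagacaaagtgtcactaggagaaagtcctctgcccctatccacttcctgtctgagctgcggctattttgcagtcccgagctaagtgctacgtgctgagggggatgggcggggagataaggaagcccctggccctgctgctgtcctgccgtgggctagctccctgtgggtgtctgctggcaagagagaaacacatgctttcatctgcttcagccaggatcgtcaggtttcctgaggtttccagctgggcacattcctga
ECE1-AS1: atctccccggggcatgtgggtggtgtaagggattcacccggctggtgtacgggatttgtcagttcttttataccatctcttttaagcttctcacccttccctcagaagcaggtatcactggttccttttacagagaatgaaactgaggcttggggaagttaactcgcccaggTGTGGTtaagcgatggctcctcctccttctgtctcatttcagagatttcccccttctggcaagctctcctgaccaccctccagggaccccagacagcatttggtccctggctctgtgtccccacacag
MIR3142HG lies at chr5:160468001-160468300 (plus strand) and RASA3-IT1 at chr13:114109730-114110029 (minus strand). The sites that hold them were called higher, but the MIR3142HG call was lost without either control library or shIRF4 library 1.
MIR3142HG: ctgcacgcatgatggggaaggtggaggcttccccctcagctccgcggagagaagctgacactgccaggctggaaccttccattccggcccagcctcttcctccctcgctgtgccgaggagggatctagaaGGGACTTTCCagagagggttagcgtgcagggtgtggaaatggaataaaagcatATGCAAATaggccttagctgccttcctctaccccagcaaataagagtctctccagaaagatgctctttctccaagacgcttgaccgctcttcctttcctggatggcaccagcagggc
RASA3-IT1: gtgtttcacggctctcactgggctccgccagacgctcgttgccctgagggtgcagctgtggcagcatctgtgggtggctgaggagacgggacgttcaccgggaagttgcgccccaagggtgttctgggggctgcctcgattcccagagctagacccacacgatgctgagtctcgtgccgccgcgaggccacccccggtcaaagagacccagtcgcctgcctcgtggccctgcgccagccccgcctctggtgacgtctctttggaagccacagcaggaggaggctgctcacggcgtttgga
MIR17HG lies at chr13:91347437-91347736 (plus strand), in a site that was not called.
MIR17HG: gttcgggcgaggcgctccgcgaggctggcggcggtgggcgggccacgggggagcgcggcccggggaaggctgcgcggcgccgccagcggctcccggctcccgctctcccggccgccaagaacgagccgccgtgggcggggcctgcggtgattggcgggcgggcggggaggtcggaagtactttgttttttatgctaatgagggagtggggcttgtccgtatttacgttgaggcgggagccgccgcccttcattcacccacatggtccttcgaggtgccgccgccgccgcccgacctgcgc

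The site of AS-PTPRE, inside PTPRE (a receptor-type tyrosine phosphatase), had 70.0 and 67.3 CPM in shIRF4, against 104 and 108 CPM in control (log2 fold change -0.67, SE 0.06, edgeR adjusted p = 2.73e-08). ECE1-AS1, antisense within ECE1 (endothelin-converting enzyme), marked a site with 94.2 and 89.3 CPM in shIRF4, against 127 and 131 CPM in control (-0.54, SE 0.06, edgeR adjusted p = 2.96e-07). LINC02245 sat in a site with 19.9 and 19.6 CPM in shIRF4, against 30.8 and 34.8 CPM in control (-0.78, SE 0.09, edgeR adjusted p = 1.23e-06). In all 3 sites both shIRF4 libraries were below both control libraries. Upstream of MIR3142HG, the host transcript of miR-146a, the shown window holds an NF-kB match and an octamer match, and its site had 46.5 and 40.8 CPM in shIRF4, against 34.7 and 35.6 CPM in control (0.28, SE 0.08, edgeR adjusted p = 0.0111, lost with DESeq2 and in 3 of the 4 fits that leave out a library). RASA3-IT1, within RASA3 (a GTPase-activating protein for Ras and Rap), marked a site with 87.8 and 80.8 CPM in shIRF4, against 60.8 and 64.2 CPM in control (0.39, SE 0.06, edgeR adjusted p = 8.3e-05). MIR17HG, the host of a miRNA cluster that is amplified in some lymphomas, had one of the strongest lncRNA sites, with 144 and 139 CPM in shIRF4 and 123 and 131 CPM in control. Its difference did not pass the test (0.11, SE 0.05, edgeR adjusted p = 0.174).

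Across the 609 RefSeq promoter windows that lie wholly inside a site, the GC box GGGCGG occurred in 71.8%, against 45% of all 33725 autosomal windows of the same length. The NF-kB letters occurred in 2.13% of the windows inside sites and 1.93% of all windows, the ETS-IRF composite in 2.96% and 2.78%, and the octamer in 2.13% and 1.75%. AP-1 letters were in 3.61% of the windows inside sites and 7.67% of all. The tandem IRF motif was in 2.63% of the windows inside sites and 3.57% of all, RUNX in 9.03% and 13.1%, and the CCAAT box in 36.1% and 34.4%. These are counts of letters in a window and show no binding. The sequences of the sites without an annotated start, which make up most of the group, were not used here.

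In shIRF4, 643 of the 1857 sites fell (34.6%), while 15.5% of all 73028 tested intervals fell, and 113 sites rose (6.09%), while 7.26% of all tested intervals rose (edgeR quasi-likelihood test, adjusted p under 0.05 over all tested intervals). In either direction 22.8% of all tested intervals were called, and 1101 of the sites were not. The sites had a median control level of 42.4 CPM, against 6.29 CPM over all tested intervals, and higher counts let smaller changes be called. Distal intervals with 20 to 30 CPM in their lower control library fell in 35.3% of cases and rose in 6.51%. Both shIRF4 libraries lay below both control libraries at 749 sites, or 40.3%, against 26.4% of all tested intervals. They lay above both control libraries at 522 sites, or 28.1%, against 34.6% of all tested intervals. The falls were modest, with a median of 1.33-fold among the sites that fell, and the rises smaller, with a median of 1.21-fold. A fall of at least 2-fold was called at 40 sites (2.15%), against 3.91% of all tested intervals, and no site rose by 2-fold or more, against 1.12% of all. The median log2 fold change was -0.08 over the sites and 0.01 over all tested intervals. Together the sites held 9.19% and 9.26% of the counts in the shIRF4 libraries and 9.77% and 9.73% in the control libraries.

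Since high control values chose the sites, and control is also what shIRF4 is set against, these counts describe the sites and test nothing. The same conditions applied to the mean of all 4 libraries gave 1876 sites, of which 27.6% fell and 8.74% rose, with a median of -0.03. Applied to the shIRF4 libraries in place of control, they gave 1640 sites, of which 20.2% fell and 11.1% rose, with a median of 0.00, and 1473 sites met both versions. The count of falls is also sensitive to the tool: DESeq2 called 290 sites lower and 22 higher. All 312 of these were also called in the same direction by edgeR and after leaving out each library in turn, so a call described below as lost without a library was lost with DESeq2 as well.

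**Figure D1:**
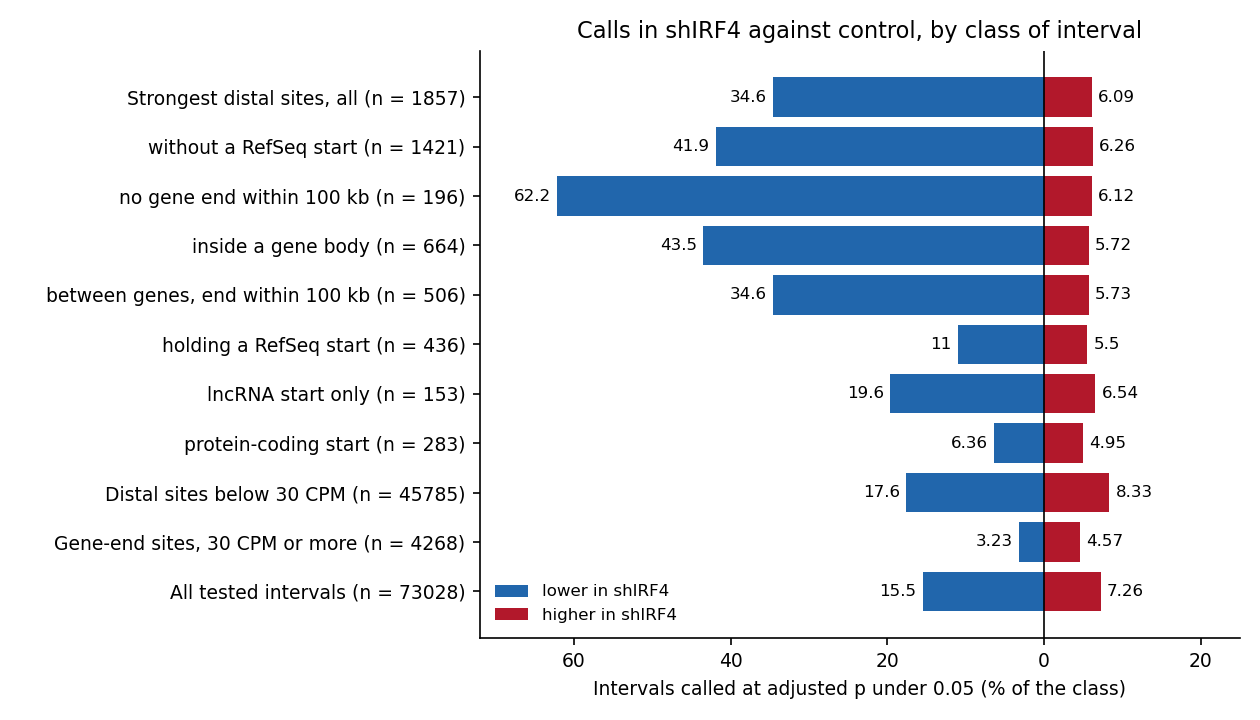
Share of intervals called lower (blue, drawn to the left) and higher (red, to the right) in shIRF4 against control at an edgeR adjusted p under 0.05, in percent of each class, with the number tested in brackets. Sites without a RefSeq start reach 41.9% lower, sites with one 11%, and gene-end intervals of the same strength 3.23%.

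Of the 643 falls, 595 lay at sites without an annotated start. Among the 1421 such sites, 595 fell (41.9%) and 89 rose (6.26%), with a median log2 fold change of -0.15, and they included all 40 falls of at least 2-fold. Of the 436 sites that held a start, 48 fell (11%) and 24 rose (5.5%), with a median of 0.02. Starts of protein-coding genes fell at 18 of 283 sites, and sites with a lncRNA start only at 30 of 153. For comparison, 4268 autosomal intervals within 1 kb of a protein-coding gene end reached the same 30 CPM in both control libraries, and 3.23% of them fell (138) and 4.57% rose (195). These counts moved with single libraries. At sites with a start, 28 fell and 11 rose without control library 1, 26 fell and 10 rose without control library 2, and 41 rose without shIRF4 library 2. At gene-end intervals 67 fell and 45 rose without control library 1, 71 fell and 43 rose without control library 2, and 389 rose without shIRF4 library 2. Rises at sites without a start numbered 46 without control library 1, 45 without control library 2 and 139 without shIRF4 library 2. Scaling by library totals alone kept this order, with falls at 36% of sites without a start, 8.03% of those with one and 2.09% of the gene-end intervals. That scaling turned the balance of calls at sites with a start, to 35 lower and 41 higher, and gave 481 rises at gene-end intervals. With 30 CPM required of the mean of all 4 libraries, falls were called at 33.8% of the 1394 sites without a start and 9.54% of the 482 with one. No test was run between these classes.

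**Figure D2:**
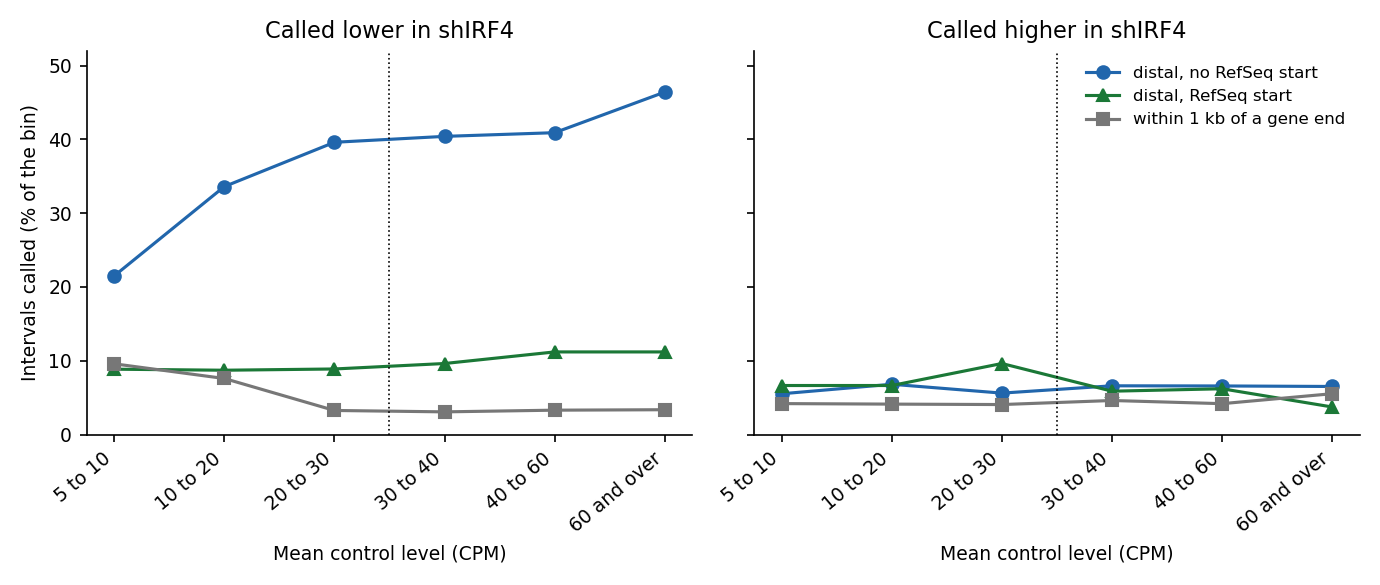
Share of intervals called lower (left panel) and higher (right panel) in shIRF4, in percent, by the mean control level in CPM, for distal intervals without a RefSeq start, distal intervals with one and intervals within 1 kb of a gene end; the dotted line stands at a mean of 30 CPM. Distal intervals without a start reach 46.4% lower in the top bin, while gene-end intervals stay at 3.37%.

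The share of falls among distal intervals without a start was higher in bins of higher control level. Control sets both the bins and the base of the fold change, so high bins favour falls by construction, and the shares are a description only. Higher counts also let smaller changes be called. The share was 21.5% at a control mean of 5 to 10 CPM, 33.6% at 10 to 20, 39.6% at 20 to 30, 40.4% at 30 to 40, 40.9% at 40 to 60 and 46.4% at 60 CPM and over. Gene-end intervals, binned by the same levels, fell in 9.59% of cases in the lowest bin and 3.37% in the highest. Distal intervals with a start stayed between 8.72% and 11.2%. The share of rises among distal intervals without a start ran between 5.53% and 6.82% over all bins. These are shares of intervals that come from the same 4 libraries.

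The share of falls also varied with where a site lay, again without a test between places. Of sites with no RefSeq start, mitochondrial pseudogene, tRNA or snRNA gene or immunoglobulin segment in them, 289 of 664 inside a gene body fell (43.5%), 175 of 506 between genes with a gene end within 100 kb fell (34.6%), and 122 of 196 with no gene end within 100 kb fell (62.2%). The last share rests in part on 1 library: over all 222 sites with no gene end within 100 kb, 131 fell with both shIRF4 libraries and 73 without shIRF4 library 1. By length, falls were called at 31.9% of the 91 sites of up to 1000 bp and 27.6% of the 945 sites of 1001 to 2000 bp. They were called at 35.5% of the 499 sites of 2001 to 3000 bp and 54.7% of the 322 sites over 3000 bp. The sites over 3000 bp also had a higher median control level, 58.1 CPM against 39.5 CPM at 1001 to 2000 bp, and 1 of their falls reached 2-fold. Chromosome 19 held 207 sites, of which 92 fell (44.4%) and 4 rose (1.93%). This share of falls was near the top of the range over other chromosomes, 20% on chromosome 11 to 46.5% on chromosome 15. Of distal intervals below the threshold, 26.2% fell on chromosome 19, against 17.6% over all autosomes. Its sites were also longer, with a median of 3024 bp against 1877 bp over all sites. On chromosome 21, 8 of 26 sites rose (30.8%).

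The largest falls took strong sites well below 20 CPM in most cases. Inside IGF2R, the receptor that carries mannose 6-phosphate-tagged enzymes and IGF2 to lysosomes, the site at chr6:160090759-160091894 had 9.13 and 8.89 CPM in shIRF4, against 33.9 and 32.9 CPM in control (log2 fold change -1.93, SE 0.10, edgeR adjusted p = 3.13e-11). Inside SNAP47, a SNARE-family protein of membrane fusion, the site at chr1:227744269-227746682 had 29.0 and 32.4 CPM in shIRF4, against 90.8 and 98.9 CPM in control (-1.69, SE 0.07, edgeR adjusted p = 3.58e-12). Both groups were tight and far apart at these 2 sites. The site inside POLE, the catalytic subunit of DNA polymerase epsilon, had 16.4 and 25.7 CPM in shIRF4, against 64.3 and 59.7 CPM in control (-1.67, SE 0.12, edgeR adjusted p = 2.02e-09), with shIRF4 library 1 the lower of its pair.

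The next falls were at sites near NDUFV2 (a subunit of mitochondrial complex I), near CIMIP5, inside MLPH (melanophilin, which links melanosomes to myosin), near KCNV2 (a potassium channel subunit), inside RAP1A (a Ras-like GTPase), at chr5:54785698-54786947 with no gene end within 100 kb, and near MYRIP (which links Rab proteins to myosin). Their log2 fold changes ran between -1.66 near NDUFV2 and -1.47 near MYRIP. The site in MLPH covers the mitochondrial pseudogene MTND5P46. None of these 10 sites held a RefSeq start, and at all 10 both shIRF4 libraries lay below both control libraries. All 10 kept their call with DESeq2 and after leaving out each library in turn.

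**Figure D3:**
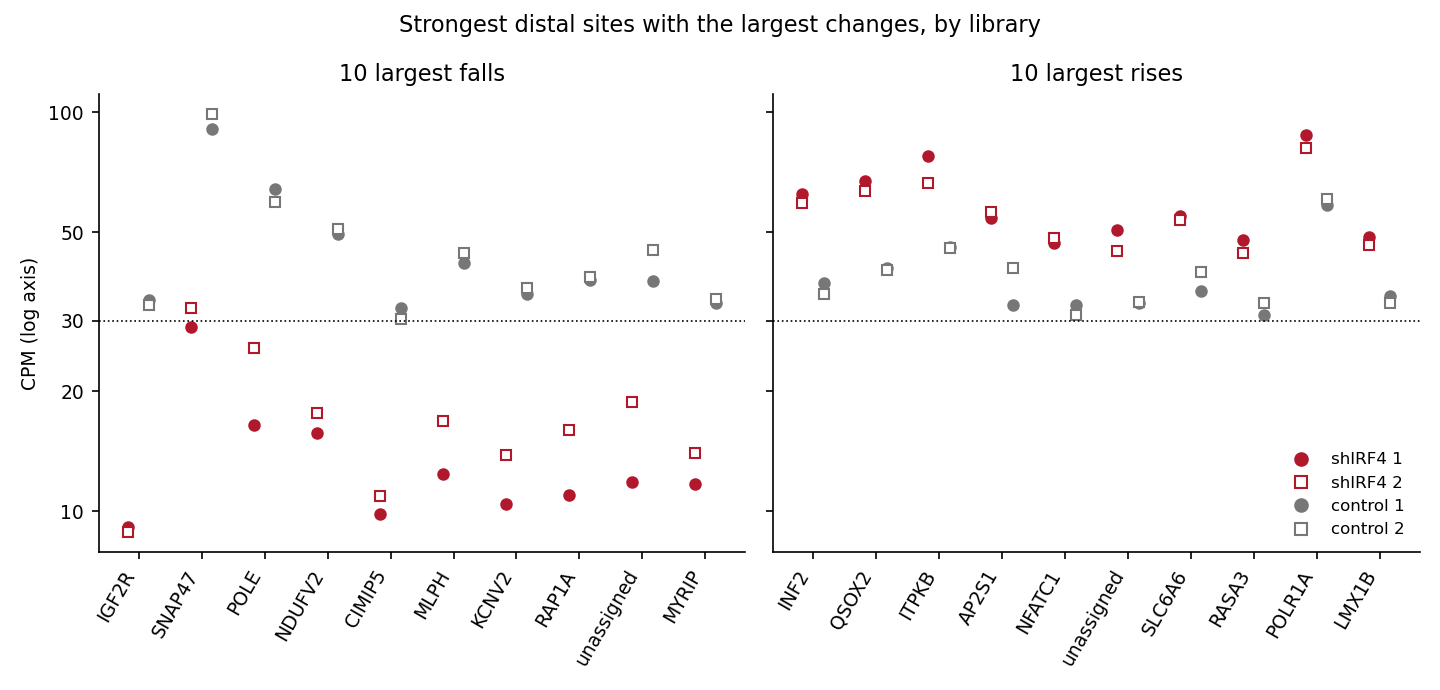
CPM in each of the 4 libraries on a log axis at the 10 sites with the largest falls (left) and the 10 with the largest rises (right) in shIRF4, with 1 site kept per gene; red marks are shIRF4 libraries, grey marks control libraries, and the dotted line is the 30 CPM threshold. The groups do not overlap at any of these sites, which was a condition for being shown.

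Rises were smaller than falls among these sites, but choosing sites by a high control level favours large falls over large rises. With 30 CPM required of both shIRF4 libraries in place of control, 2 sites fell and 2 rose by at least 2-fold. The largest rise was near INF2, a formin that builds actin filaments, at chr14:104656306-104659750, with 62.4 and 59.4 CPM in shIRF4, against 37.3 and 35.1 CPM in control (0.71, SE 0.07, edgeR adjusted p = 1.72e-07). The site inside QSOX2, a sulfhydryl oxidase, had 67.4 and 63.6 CPM in shIRF4, against 40.7 and 40.3 CPM in control (0.65, SE 0.07, edgeR adjusted p = 2.87e-07). Inside ITPKB, an inositol trisphosphate kinase of lymphocyte signalling that belongs to the germinal centre lymphoma signature, a site over the start of an uncharacterised lncRNA had 77.7 and 66.7 CPM in shIRF4, against 46.1 and 45.6 CPM in control (0.62, SE 0.07, edgeR adjusted p = 1.23e-06). The groups were well apart at all 3. Then came sites near AP2S1 (an adaptor of clathrin coats), inside NFATC1 (a calcium-dependent transcription factor of lymphocytes), at chr12:94768427-94770029 with no gene end within 100 kb, inside SLC6A6 (the taurine transporter), inside RASA3, inside POLR1A (the largest subunit of RNA polymerase I) and near LMX1B (a LIM homeobox factor), with log2 fold changes of 0.45 to 0.53. Of these 10 sites, those in ITPKB and NFATC1 held a lncRNA start.

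The 1635 sites that could be assigned to a gene, by the gene body that holds the midpoint or else the nearest gene end within 100 kb, were spread over 1251 genes, of which 1013 had 1 site and 81 had 3 or more. Position does not show which gene a site acts on. Sites that fell belonged to 392 genes and sites that rose to 96, and 9 genes had both. The genes with most sites were BCL2 and GNG7 with 10 each, IQSEC1 with 9, RASA3 with 7, TMEM121, CWH43 and MYH14 with 6 each, and LPCAT1 with 5.

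BCL2, the antiapoptotic protein that keeps B cells and many lymphomas alive, had 10 sites, of which 7 fell and none rose. The strongest change was 7571 bp from a gene end at chr18:63311286-63313753, with 28.2 and 26.7 CPM in shIRF4, against 69.0 and 67.7 CPM in control (-1.36, SE 0.07, edgeR adjusted p = 3.37e-11). Next came chr18:63157141-63159378 in the gene body, with 19.2 and 22.6 CPM in shIRF4, against 32.9 and 33.9 CPM in control (-0.75, SE 0.09, edgeR adjusted p = 2.97e-06). Neighbours did not move alike. The adjoining site at chr18:63159539-63163185 had 74.3 and 72.2 CPM in shIRF4, against 81.8 and 85.2 CPM in control (-0.23, SE 0.06, edgeR adjusted p = 0.0062), and the one before it at chr18:63154932-63156791 had 32.6 and 32.8 CPM in shIRF4 and 34.6 and 34.8 CPM in control, which did not pass the test (-0.13, SE 0.08, edgeR adjusted p = 0.242). Of the 7 BCL2 falls, those at chr18:63159539-63163185 and chr18:63206517-63209804 lost their call when control library 2 was left out. Both calls, and that at chr18:63180384-63183751 (-0.32), were also lost with DESeq2.

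**Figure D4:**
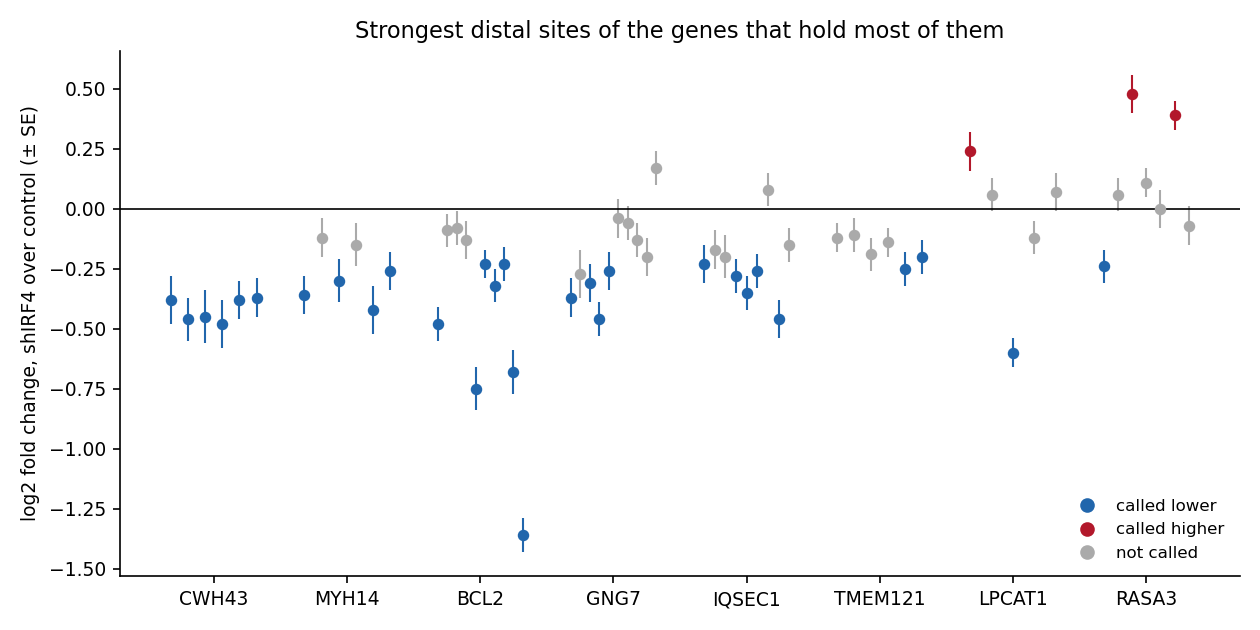
Log2 fold change of shIRF4 over control with its standard error for every site of the 8 genes with most sites, in order along the chromosome within a gene; blue points were called lower, red higher and grey not called. BCL2 runs between -1.36 and -0.08, and RASA3 between -0.24 and 0.48.

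The other genes with many sites differed in how many moved. GNG7, a G protein gamma subunit, had 10 sites along its body, of which 4 fell (log2 fold changes -0.46 to -0.26), 2 of which (-0.31 and -0.26) lost their call without control library 1, the smaller also without control library 2 or shIRF4 library 1. IQSEC1, an exchange factor for ARF GTPases, had 9, of which 5 fell (-0.46 to -0.23), and its site over an annotated IQSEC1 start was not called (0.08). Its falls of -0.23, -0.28 and -0.26 lost their call without control library 1, the first and last also without control library 2, and the first pair also without shIRF4 library 1. RASA3 had 7 sites, 1 lower (-0.24) and 2 higher. LPCAT1, an enzyme of phospholipid remodelling, had 1 clear fall at chr5:1496746-1500118, with 83.5 and 78.5 CPM in shIRF4, against 120 and 118 CPM in control (-0.60, SE 0.06, edgeR adjusted p = 9.96e-08), and 1 small rise (0.24). The RASA3 fall and the LPCAT1 rise were each lost without either control library or shIRF4 library 1. The 6 sites next to TMEM121 lie beside the immunoglobulin heavy chain locus. Of these, 2 fell, by 0.25 and 0.20 on the log2 scale, and both calls were lost without control library 1, the smaller also without control library 2 or shIRF4 library 1. AHRR, the repressor of the aryl hydrocarbon receptor, and BTG2, an antiproliferative gene, had 5 sites each, and none was called.

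Most sites also fell near several other genes, of which 3 are described here, picked after their values were seen. Among those not described, all 4 sites of DUSP22 fell (-1.05 to -0.37, median -0.77). Summed over them, the mean level was 99 CPM in shIRF4, against 161 CPM in control. All 5 sites of LOC101929601 fell as well (-0.54 to -0.35). All 4 sites of SNAP47 fell, at log2 fold changes between -1.69 and -0.21, and the smallest lost its call without either control library or shIRF4 library 1. MSI2, an RNA-binding protein of blood stem cells, had 5 sites inside its body, of which 4 fell. The one at chr17:57629062-57630298 had 14.0 and 16.0 CPM in shIRF4, against 37.8 and 37.6 CPM in control (-1.40, SE 0.09, edgeR adjusted p = 6.46e-10). ZCCHC7 lies beside PAX5, the B cell commitment factor, and 3 of its 5 sites fell, the smallest of them (-0.23) not without control library 2, and the most at chr9:37382190-37384096 with 19.3 and 21.9 CPM in shIRF4, against 39.7 and 37.8 CPM in control (-0.98, SE 0.09, edgeR adjusted p = 4.56e-08).

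IRF4 itself was assigned 3 of the strongest distal sites, and sites assigned to other genes nearby are not counted here. The one at chr6:371015-374332, 19079 bp from the gene, had 42.8 and 47.1 CPM in shIRF4, against 53.1 and 50.8 CPM in control (-0.27, SE 0.07, edgeR adjusted p = 0.0106). That call was lost with DESeq2, without control library 1 and without shIRF4 library 1. The site at chr6:376900-381075 had 82.3 and 63.9 CPM in shIRF4, on either side of the 70.6 and 76.0 CPM in control, and was called only without shIRF4 library 1 among the fits that leave out a library (edgeR adjusted p = 0.0347). The site inside the gene at chr6:402372-405387 had 35.5 and 30.9 CPM in shIRF4 and 34.2 and 34.5 CPM in control. The interval over the IRF4 start had 55.4 and 50.6 CPM in shIRF4 and 51.3 and 55.1 CPM in control, so none of these values checks the silencing, which acts on the transcript.

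By role, 108 sites lay at 68 of 336 genes in 17 lists, of which 49 fell and 8 rose. The counts of each list stand beside 34.6% lower and 6.09% higher among all 1857 sites, and 15.5% lower and 7.26% higher among all tested intervals. The median log2 fold change of the sites of a list was -0.08 for IRF4 and its partners, -0.07 for B cell identity factors, -0.15 for B cell receptor and MYD88 signalling, -0.25 for the NF-kB list, -0.32 for survival regulators, -0.15 for the ABC signature and 0.12 for the germinal centre signature, beside -0.08 over all 1857 sites and 0.01 over all tested intervals. Of the partners and relatives of IRF4, 5 of 16 genes had 7 sites, of which 3 fell. IKZF1 (Ikaros) had 1 site 35336 bp from the gene, with 35.7 and 33.1 CPM in shIRF4, against 56.3 and 50.7 CPM in control (-0.67, SE 0.08, edgeR adjusted p = 9.52e-07), and ETV6, an ETS repressor, had one in its body with 31.0 and 31.9 CPM in shIRF4, against 43.8 and 42.9 CPM in control (-0.51, SE 0.08, edgeR adjusted p = 2.73e-05). The third fall was the IRF4 site above.

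Transcription factors of B cell identity had 21 sites at 13 genes, of which 8 fell and none rose. The E protein genes TCF4 and TCF3, which act early in B cell development, held 6 of the 8 falls. TCF4 had 5 sites. Those at chr18:55267824-55269031 (15.5 and 17.3 CPM in shIRF4, against 30.9 and 30.9 CPM in control) and chr18:55383706-55385603 (18.9 and 20.5 CPM in shIRF4, against 34.5 and 36.0 CPM in control) fell by 0.98 and 0.90 on the log2 scale, with edgeR adjusted p = 9.53e-08 and 1.18e-07. Another TCF4 site without a start fell by 0.40, while its 2 sites over annotated TCF4 starts were not called (0.05 and -0.07). TCF3 had 4 sites, of which 3 fell, 1 not without control library 1 and 1 not without shIRF4 library 1. The largest fall was at chr19:1663158-1666390, with 43.3 and 46.1 CPM in shIRF4, against 70.8 and 70.5 CPM in control (-0.71, SE 0.07, edgeR adjusted p = 8.28e-08). One PAX5 site fell slightly (-0.19, edgeR adjusted p = 0.0176), and lost its call without either control library. EBF1, FOXP1, MEF2C, RUNX3 and both POU2F2 sites were not called, with log2 fold changes between -0.03 and 0.10.

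Genes of B cell receptor and MYD88 signalling had 25 sites, of which 11 fell and 3 rose. INPP5D, the phosphatase SHIP that damps the receptor's signal, had 14.8 and 18.2 CPM in shIRF4 at chr2:233099784-233101099, against 32.4 and 31.2 CPM in control (-1.03, SE 0.10, edgeR adjusted p = 1.33e-07). LYN, a kinase at the receptor, had a site with 55.5 and 48.1 CPM in shIRF4, against 76.1 and 74.2 CPM in control (-0.57, SE 0.07, edgeR adjusted p = 2.16e-06). VAV2, an exchange factor downstream of it, fell by 0.55 at 1 of its 4 sites. A site over a start of CD72, an inhibitory coreceptor, rose, with 104 and 95.4 CPM in shIRF4, against 77.4 and 79.3 CPM in control (0.30, SE 0.06, edgeR adjusted p = 0.000611, lost with DESeq2).

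In the NF-kB list 5 of 8 sites fell and none rose. TRAF3, which restrains the alternative NF-kB pathway, had 38.7 and 38.7 CPM in shIRF4, against 69.5 and 66.6 CPM in control (-0.86, SE 0.07, edgeR adjusted p = 6.8e-09), and BCL2A1, an antiapoptotic target, had 60.5 and 53.4 CPM in shIRF4, against 72.2 and 75.9 CPM in control (-0.42, SE 0.07, edgeR adjusted p = 7.53e-05). The other falls, at CCL4, TNIP1 and RELB, were of 0.33 or less in size. The CCL4 call was lost without control library 1 or shIRF4 library 1, that of TNIP1 without control library 2 or shIRF4 library 2, and that of RELB without any 1 of the 4 libraries. Cell survival regulators had 15 sites, of which 10 fell and 1 rose; besides the 7 of BCL2 and that of BCL2A1, the falls were at BCL2L11 (BIM, with 85.4 and 80.4 CPM in shIRF4, against 112 and 113 CPM in control) and BID (lost without control library 1), and the rise was at BIK (lost without control library 2 or shIRF4 library 1). BIM, BID and BIK promote cell death, so the list holds both kinds of gene.

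Signature genes of ABC lymphoma had 15 sites, of which 6 fell and none rose. Assigned by nearest gene end alone, the list had 11 sites, of which 3 fell and none rose. The 6 falls included 2 in IL16 (-0.60 and -0.59), 1 in P2RX5 (-0.42), 1 at RNGTT and the start of LINC02090 near TNFRSF13B, the receptor TACI (-0.28). The P2RX5, RNGTT and LINC02090 calls were lost with DESeq2. At RNGTT the log2 fold change was -0.38 with DESeq2 and -0.27 without shIRF4 library 1. Signature genes of germinal centre B cell lymphoma had 9 sites, of which 3 rose and 2 fell. The rises were at ITPKB (0.62), at 1 of the GNA13 sites (0.19, lost with DESeq2 and without either control library or shIRF4 library 1) and at NEK6 (0.32, edgeR adjusted p = 0.00424, lost with DESeq2 and without control library 2 or shIRF4 library 1) and the falls were at HHEX (-0.26, lost with DESeq2 and without control library 2) and another GNA13 site (-0.24, lost with DESeq2 and without either control library or shIRF4 library 1). No test of the difference between the 2 signatures was run. Of 30 genes of the type I interferon response, 2 had a site. OAS2, an antiviral enzyme, had 20.1 and 21.3 CPM in shIRF4, against 43.1 and 43.9 CPM in control (-1.13, SE 0.08, edgeR adjusted p = 2.38e-09), and IRF1 had 44.2 and 39.2 CPM in shIRF4, against 31.3 and 31.4 CPM in control (0.38, SE 0.08, edgeR adjusted p = 0.00107, lost with DESeq2). Elsewhere, CIITA, the master regulator of MHC class II, had 1 site, which fell (-0.24, edgeR adjusted p = 0.0186, lost with DESeq2 and without either control library or shIRF4 library 1), and MYBL2, a cell cycle factor, had 1, which fell (-0.55).

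The 18 plasma cell genes and the T cell, NK cell, and epithelial and fibroblast markers had no site. Myeloid markers had 3, next to FCN1 and CD33, and all 3 fell, by 0.43 to 0.47 on the log2 scale; the CD33 call was lost with DESeq2 and without shIRF4 library 1, and 1 of the FCN1 calls with DESeq2. The single sites of the housekeeping and cohesin lists, at YWHAZ and YY1, were not called (0.05 and -0.09).

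The very strongest sites were of another kind. None of the 10 with the highest control mean held a RefSeq start, and 8 had neither a protein-coding end within 100 kb nor a gene body around them. The highest, chr16:46398160-46401706, had 479 and 651 CPM in shIRF4, against 698 and 636 CPM in control. It passed the test (-0.29, SE 0.08, edgeR adjusted p = 0.0157), but the groups overlapped, and the call was lost with DESeq2 and without shIRF4 library 1. Sites at chr20:28494604-28499233 (343 and 456 CPM in shIRF4, 490 and 447 CPM in control) and chr16:34580925-34584023 (333 and 436 CPM in shIRF4, 491 and 429 CPM in control) showed the same pattern, with shIRF4 library 1 lowest of the 4 and shIRF4 library 2 between the control libraries. These positions lie near centromeres, where repeats are common, and the headers request fractional counts for reads with several matches, although every deposited count is a whole number.

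Of the strongest 10, 3 were over pieces of the mitochondrial genome copied into the nucleus: MTRNR2L12 on chromosome 3 and a pair of neighbouring sites inside PCBD2 over MTND4 and MTND5 pseudogenes. The site at chr5:134926395-134928509 in PCBD2 had 353 and 506 CPM in shIRF4, on either side of the 455 and 409 CPM in control (-0.06, SE 0.10, edgeR adjusted p = 0.733). In all, 12 of the 1857 sites held a mitochondrial pseudogene. At 11 of them the 4 CPM values ran in the reverse order of the libraries' total counts, which was so at 36 of the 1857 sites. The twelfth is the site in MLPH named among the largest falls. The part of mitochondrial DNA content, read depth or shared reads in these values was not tested.

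**Figure D5:**
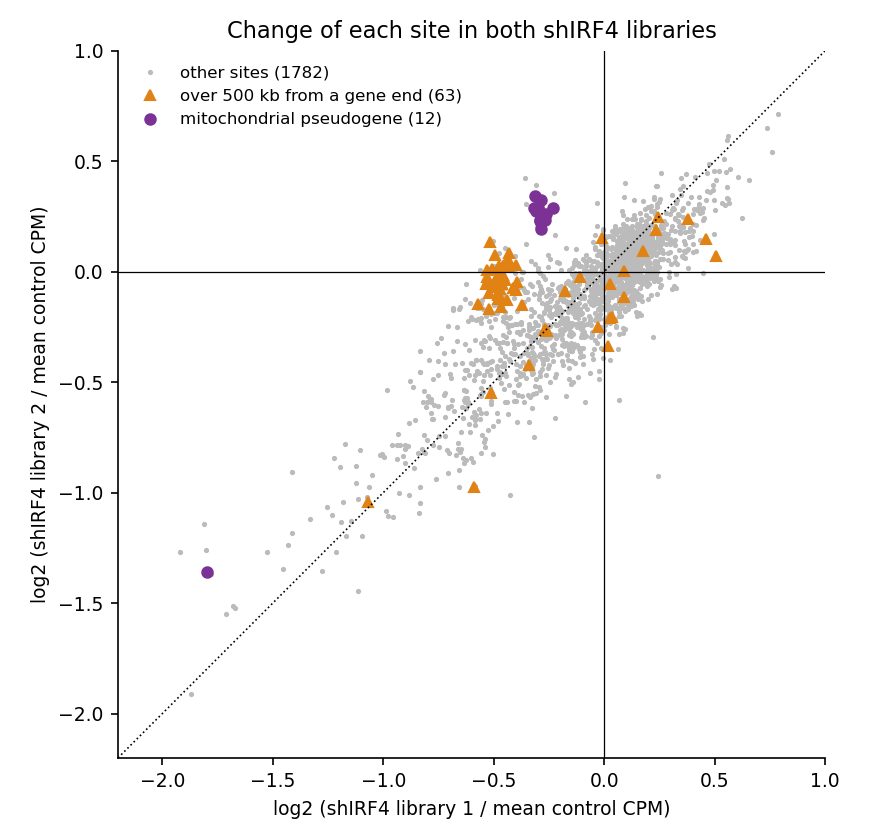
Log2 ratio of each shIRF4 library to the mean control CPM, library 1 across and library 2 up, with 1 point for each of the 1857 sites; the dotted line marks equal change. Sites more than 500 kb from a gene end (triangles) and mitochondrial pseudogene sites (circles) lie mostly above the line, where library 1 is lower than library 2.

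The split between the shIRF4 libraries ran through other groups of sites. shIRF4 library 1 was below library 2 at 40.1% of all sites, at 49 of the 65 sites more than 500 kb from any protein-coding end (75.4%), at 69.1% of the 207 on chromosome 19, at 33.7% of those with a RefSeq start, and at 32.9% of the 556 without a start inside gene bodies on other chromosomes. Among these last, 231 fell (41.5%) and 36 rose. At the 643 sites that fell, library 1 was the lower at 366, and the median log2 ratio to the control mean was -0.43 in library 1 and -0.36 in library 2. At the 113 that rose, they were 0.38 in library 1 and 0.28 in library 2.

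Some sites lay close together, with other intervals allowed between them. When close neighbours were joined, with midpoints at most 12426 bp apart in the result, 397 sites formed 164 stretches of 2 or more, and in 49 stretches every site fell, in none every site rose, and 4 held both. Of the sites in stretches 52.1% fell, against 29.9% of the 1460 sites that stood alone. Part of this rests on 1 library. In the stretch at chr16:34571496-34596236 all 7 sites fell, with summed levels of 811 and 1070 CPM in shIRF4, against 1180 and 1060 CPM in control. There, library 1 was the lower and library 2 lay between the control libraries. At its site chr16:34580925-34584023 the log2 fold change was -0.31, and -0.10 without shIRF4 library 1. The 6 sites next to CWH43, on chromosome 4 close to the centromere, all fell by 0.37 to 0.48 on the log2 scale. The widest of them, chr4:49107105-49111077, had 66.9 and 85.2 CPM in shIRF4, against 96.2 and 92.8 CPM in control (-0.38, SE 0.08, edgeR adjusted p = 0.00151), with library 1 again lower. Without shIRF4 library 1, 5 of the 6 calls were lost. The 7 sites between ZNF383 and ZNF875, zinc finger genes of a cluster on chromosome 19, all fell as well (-0.46 to -0.40), and 5 of those calls were lost without shIRF4 library 1. MYH14, a myosin heavy chain gene on chromosome 19, had 6 sites, of which 4 fell (-0.42 to -0.26), and all 4 calls were lost without shIRF4 library 1. The BCL2 falls named above did not depend on that library.

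Among the strong sites outside these classes, the strongest that was assigned to a gene and moved was LOC102724560 on chromosome 21, with 364 and 337 CPM in shIRF4, against 283 and 285 CPM in control (0.26, SE 0.05, edgeR adjusted p = 0.000265). A site inside ATP9B, a phospholipid flippase gene, followed with 269 and 256 CPM in shIRF4, against 210 and 212 CPM in control (0.27, SE 0.05, edgeR adjusted p = 0.000217), and both of these calls were lost with DESeq2. Inside LRRC27 the site at chr10:132350378-132354156 had 103 and 118 CPM in shIRF4, against 179 and 176 CPM in control (-0.74, SE 0.06, edgeR adjusted p = 1.64e-08). Near APOD, a lipid carrier, the site had 103 and 97.3 CPM in shIRF4, against 130 and 134 CPM in control (-0.44, SE 0.06, edgeR adjusted p = 3.41e-06). Several strong sites over starts stayed level, among them those of ZNF584 (180 and 194 CPM in shIRF4, 177 and 173 CPM in control) and ING5, a histone-binding protein (141 and 142 CPM in shIRF4, 138 and 140 CPM in control). These sites were picked for their level after the pseudogene and small RNA classes had been set aside.

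In the immunoglobulin loci, where antibody genes are assembled and transcribed, 7 sites held a gene segment and no other feature, of which 3 fell and 1 rose. Without control library 1, the rise and 2 of the falls lost their call, without control library 2 the rise, and without shIRF4 library 2 1 of the falls. The site over IGKC, the kappa constant segment, also holds a lncRNA start. It had 84.2 and 80.2 CPM in shIRF4, against 94.4 and 102 CPM in control (-0.30, SE 0.06, edgeR adjusted p = 0.000693, lost with DESeq2). Between the heavy chain constant segments a stretch of 6 sites reached up to IGHA1, and 3 of them fell, by 0.22 to 0.27, and all 3 calls were lost without control library 1, 1 also without control library 2 and 1 also without shIRF4 library 2.

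Over lncRNA genes with known names, sites at starts of MALAT1, DANCR, DLEU2, SNHG5, MIR29B2CHG and MIRLET7A1HG were not called, with log2 fold changes between -0.01 and 0.09. That of MIRLET7A1HG, the host of let-7 miRNAs, had 93.8 and 93.3 CPM in shIRF4 and 85.2 and 84.5 CPM in control. The start of LINC02397, 236068 bp from the nearest protein-coding end, fell, with 40.9 and 36.8 CPM in shIRF4, against 44.4 and 48.4 CPM in control (-0.29, SE 0.08, edgeR adjusted p = 0.00616, lost with DESeq2 and without control library 2), and that of C1orf220 rose, with 53.9 and 50.6 CPM in shIRF4, against 37.1 and 38.9 CPM in control (0.42, SE 0.07, edgeR adjusted p = 0.000151). tRNA or snRNA genes marked 41 sites, of which 5 fell (12.2%) and 10 rose (24.4%). Among all 1857 sites 34.6% fell and 6.09% rose, and among all tested intervals 15.5% fell and 7.26% rose. Of the 128 distal intervals below the threshold with such a gene, 5.47% fell and 2.34% rose.

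The edge of the group was not sharp. The 3 sites just above the level threshold, near PDE8A and inside JPH3 and EPHA4, had 30 CPM in their lower control library after rounding, as did the 3 distal intervals just below it, near SIGLEC8, inside RFFL and at chr5:124935035-124936612. None of the 3 sites just above was called, and of the 3 just below, the one on chromosome 5 was called lower. The nearest sites to a gene end were 5002 bp from TMEM250 and 5028 bp from PLCD1, and the first intervals left out were 4999 bp from ZNF552 and 4994 bp from LILRB2. The longest site measured 4993 bp. In shIRF4, 234 of the 1857 sites were under 30 CPM in both libraries, and 7 were under 15 CPM in both, while 167 distal intervals that missed the threshold in control reached it in both shIRF4 libraries.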

How the data were processed

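The deposited files hold read counts per interval, whole numbers made by the authors with featureCounts 2.0.0 on paired reads reduced to their 5′ end, with duplicates ignored and fractions of multi-mapping reads requested, per the file headers, although no count is fractional. Per the submitters' processing notes the reads were placed on hg38. Which aligner and peak caller were used is not given in the sources used here.

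CPM is the count over the file total. Counts of all 73135 intervals were tested with edgeR 4.0.16 in R 4.3.3 (filterByExpr, TMM factors, quasi-likelihood F-test, group as the only term), with Benjamini-Hochberg adjustment over 73028 intervals and a threshold of 0.05. The filter removed 107. SE is the log2 fold change over the square root of F. The script was tested on simulated data. Members and gene lists were chosen with earlier results of these data known; RefSeq classes and a few sites were chosen after values were seen. Sites were named by a rule: strongest, largest falls and rises, genes and stretches with most sites, threshold edges, IRF4, and up to 4 called sites per list. DESeq2 1.42.0 was an alternative. P-values rest on 2 libraries per group and cover counting error and the spread between these libraries.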

Additional observations from a re-analysis of the deposited data

How the results depend on the processing

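Of all intervals, 16639 were called (11338 lower, 5301 higher), 4566 with DESeq2, 2886 against a 1.5-fold change, and between 9043 and 20033 after leaving out each library in turn. Scaling by library totals gave 9926 lower and 7181 higher and moved the median of all intervals to 0.06. Site falls kept within 1.5 times of 643 after leaving out each library (467 to 723) and rises, against 113, ran between 55 and 180; the cause was not tested. Site falls and rises were 290 and 22 with DESeq2 and 75 and 0 against a 1.5-fold change, which asks for a larger change. Rises were 170 by library totals, with a median of -0.03, and 63 with the control pair summed. Leaving out a library gave medians of -0.09 to -0.07. At 20 CPM, 1300 of 3716 sites fell and 234 rose; over 20 kb from a gene end 391 fell and 65 rose; at 50 CPM, 215 of 582 fell and 32 rose; with 30 CPM in both shIRF4 libraries, 331 fell and 182 rose, with a median of 0.00; on the mean of all libraries the median was -0.03. Up to 1000 bp, 29 of 91 sites fell and 1 rose, with a median of -0.04. Without shIRF4 library 1, 4 uncalled sites of the strongest 10 became called higher: MTRNR2L12 (0.21), 2 in PCBD2 (0.21 and 0.27) and chr13:109424078-109424424 (0.29); without shIRF4 library 2 the same 4 were called lower (-0.35, -0.35, -0.36 and -0.37). List sites were 108, and 98 by nearest gene end. Of 180 called sites among those named, 112 lost their call with DESeq2, 52 and 45 without control library 1 or 2, and 56 and 7 without shIRF4 library 1 or 2. No call among the 643 and 113 turned its direction in any fit. Groups share replicate numbers, but same-numbered libraries did not deviate together (r = -0.026); with a replicate block 662 sites fell and 108 rose, with 16612 intervals called. Depth limits small changes: sites had as few as 81 reads in shIRF4 library 2.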
